A study of Mus musculus with 8 samples.

Results

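The members are 10 genes of the death-signalling branch of the tumour necrosis factor (TNF) receptor family, listed by name: the receptors Tnfrsf1a, Tnfrsf1b and Fas, the adaptors Tradd and Fadd, the kinases Ripk1 and Ripk3 with the necroptosis effector Mlkl, and Casp8 with its relative Cflar. All 10 were found, by Entrez number, among the 24112 genes of the tables. RNA was measured in LSK cells, the lineage-negative, Sca1-positive, Kit-positive marrow fraction that holds blood stem cells and early progenitors, sorted from mice whose blood had been rebuilt by transplanted marrow. In the KO group (4 libraries) the donor marrow was Traf6-/-;Vav-Cre+, and in the WT group (4 libraries) it was Vav-Cre+, so every library carries Cre driven by the blood-cell promoter Vav. The strain is C57BL/6 in both groups, and the sources used here give neither the age of the mice nor whether a library came from 1 mouse or from several. Any p-value below therefore reflects variation among libraries that could be technical.

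TNF binds TNF receptor type 1, which recruits TRADD and RIPK1 into a complex at the membrane that activates NF-κB. When that complex is not held in place by ubiquitin chains, FADD and caspase-8 join RIPK1 in the cytosol and start apoptosis, unless the caspase-8 relative c-FLIP blocks them. Where caspase-8 is inactive, RIPK1 passes to RIPK3 and MLKL, which opens the membrane (necroptosis). TRAF6, the ubiquitin ligase deleted here, serves the Toll-like and interleukin-1 receptors, and the study asked whether it keeps a basal level of NF-κB activity in blood stem cells.

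Of the 10 genes, 8 were listed above 0 in all 8 libraries, and RNA of every step from Tnfrsf1a to Mlkl was listed in KO and in WT cells; the exceptions were Fas, at or near 0 throughout, and Tradd, at 0 in 1 KO library. None of the 9 genes that could be tested changed past the threshold between KO and WT cells. The difference of smallest p was a higher Ripk1 level in KO cells (log2 difference 0.61 ± 0.28, SE), and its 95% interval still included 0. The genes with the narrowest spread, Casp8, Ripk3 and Mlkl, had intervals that lay within 2-fold either way.

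The tables give RPKM, a read density corrected for gene length and for the size of each library, so levels are comparable between genes per length. Depth, read from the steps between low values, was an estimated 22.6 to 30.7 M reads (M, mega) in genes in KO libraries and 19.3 to 24.9 M in WT libraries. KO3 and KO4 came from sequencing lane 5 and the other 6 libraries from lane 4. Zeros at abundant genes were unevenly spread: of 3943 genes averaging over 20 RPKM, 175 were at 0 in KO3, 61 in KO4, 47 in WT2 and 6 to 20 in each of the other 5 libraries. Cycs, which encodes the cytochrome c used by every respiring cell, was among those at 0 in KO3, so a 0 is written as listed at 0 and is not read as absence. Traf6, the deleted gene, had RPKM values of 0.613, 0.818, 0 and 0.00721 in KO1 to KO4, against 14.9, 3.52, 9.40 and 7.10 RPKM in WT1 to WT4. The groups did not overlap (exact permutation test, 2-sided, p = 0.0286, the minimum over 70 assignments), so this gene does not go against the labels. Across all genes, limma on log2(RPKM + 1) with Benjamini-Hochberg adjustment called 0 of 11276 genes at an adjusted p of 0.05 (0%), and 847 (7.51%) had an unadjusted p under 0.05. Traf6 itself was not called (log2 difference -2.75 ± 0.53, SE, limma adjusted p = 0.341). A gene that was not called is thus not shown to be unchanged. Counts by fits with other settings are given in the closing part. The median log2 difference of all genes tested was -0.14.

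The start regions of 3 members are shown because each holds the core of an interferon-stimulated response element (ISRE), the letters GAAANNGAAA, close to its start. Windows of 300 bases, 250 before and 50 after an annotated start, come from RefSeq (GRCm38.p6) and were on hand for 9 of the 10 genes, all but Tradd, with 10 windows because Ripk1 has 2. They are printed 5′ to 3′ on the gene's strand, with the ISRE core in capitals.
Ripk1 promoter, chr13:34002624-34002923, plus strand: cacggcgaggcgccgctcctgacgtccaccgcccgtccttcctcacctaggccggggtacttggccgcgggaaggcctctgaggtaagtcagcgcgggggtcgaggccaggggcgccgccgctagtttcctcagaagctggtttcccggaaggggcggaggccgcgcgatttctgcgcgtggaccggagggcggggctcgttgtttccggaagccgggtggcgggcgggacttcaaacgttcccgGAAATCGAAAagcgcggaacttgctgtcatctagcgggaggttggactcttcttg
Cflar promoter, chr1:58711241-58711540, plus strand: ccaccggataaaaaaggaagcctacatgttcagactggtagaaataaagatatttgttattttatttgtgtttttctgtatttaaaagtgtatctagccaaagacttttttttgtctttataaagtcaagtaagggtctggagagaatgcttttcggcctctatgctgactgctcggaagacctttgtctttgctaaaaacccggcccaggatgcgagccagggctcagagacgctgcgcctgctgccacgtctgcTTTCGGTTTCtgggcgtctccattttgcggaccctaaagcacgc
Tnfrsf1b promoter, chr4:145246821-145247120, minus strand: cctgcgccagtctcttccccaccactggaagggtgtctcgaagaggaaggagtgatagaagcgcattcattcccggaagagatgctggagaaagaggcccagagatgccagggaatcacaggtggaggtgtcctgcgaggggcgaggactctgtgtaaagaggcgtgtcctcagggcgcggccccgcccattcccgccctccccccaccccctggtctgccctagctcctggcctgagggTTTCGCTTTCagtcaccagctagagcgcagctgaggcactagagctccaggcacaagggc
In Ripk1 the core lies on the printed strand and begins 5 bases before the start. In Tnfrsf1b it lies on the opposite strand and begins 10 bases before the start, and in Cflar it lies on the opposite strand, just past the annotated start. The bases past the start were found in a GENCODE transcript of the gene for Ripk1 and Tnfrsf1b and not for Cflar. Searched on both strands, the core was in 3 of the 10 member windows and in 3.44% of all 32851 windows. The NF-κB (κB) consensus was in 0 of the 10 member windows and in 8.46% of all. The gamma-activated site letters TTCNNNGAA were in 4 member windows (Fas, Ripk1, Tnfrsf1a, Tnfrsf1b) and 8.30% of all, and in Ripk1 1 of these matches overlaps the ISRE core. The ETS letters CCGGAAG were in 4 member windows (Mlkl, Ripk1, Tnfrsf1a, Tnfrsf1b) and 8.86% of all, overlapping a gamma-activated site match in Ripk1 and Tnfrsf1b. The SP1 letters GGGCGG were in 6 member windows (Fadd, Fas, Ripk3, Tnfrsf1b and both of Ripk1) and 35.7% of all, and the AP-1 letters TGANTCA in 1 (Fas) and 7.81%. The motifs were chosen with the RNA values known. A match in these letters is a description of the window and says nothing of whether a factor binds there.

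Casp8, the apoptosis-initiating protease, had the highest median of the 10 genes, 58.1 RPKM over the 8 libraries, and exceeded Tnfrsf1a, the next in order at 46.2 RPKM, in 8 of 8 libraries. Tnfrsf1a exceeded the next gene, Mlkl, in 5 of 8 libraries, with overlapping ranges. Mlkl (32.8 RPKM) and Ripk3 (32.6 RPKM) followed and were level with each other, each the higher in 4 libraries, and Ripk3 exceeded Tradd in 6 of 8. Tradd (21.2 RPKM), Ripk1 (20.2), Cflar (19.1), Tnfrsf1b (13.6) and Fadd (12.1) came next, and in each of these neighbouring pairs the ranges over libraries overlapped. Among all genes tested, the mean log2 level of Casp8 stood at percentile 88.5, that of Tnfrsf1a at 83.9 and that of Fadd, the lowest member tested, at 52.2. Fas stood apart at a median of 0, below Fadd in 8 of 8 libraries.

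**Figure D1:**
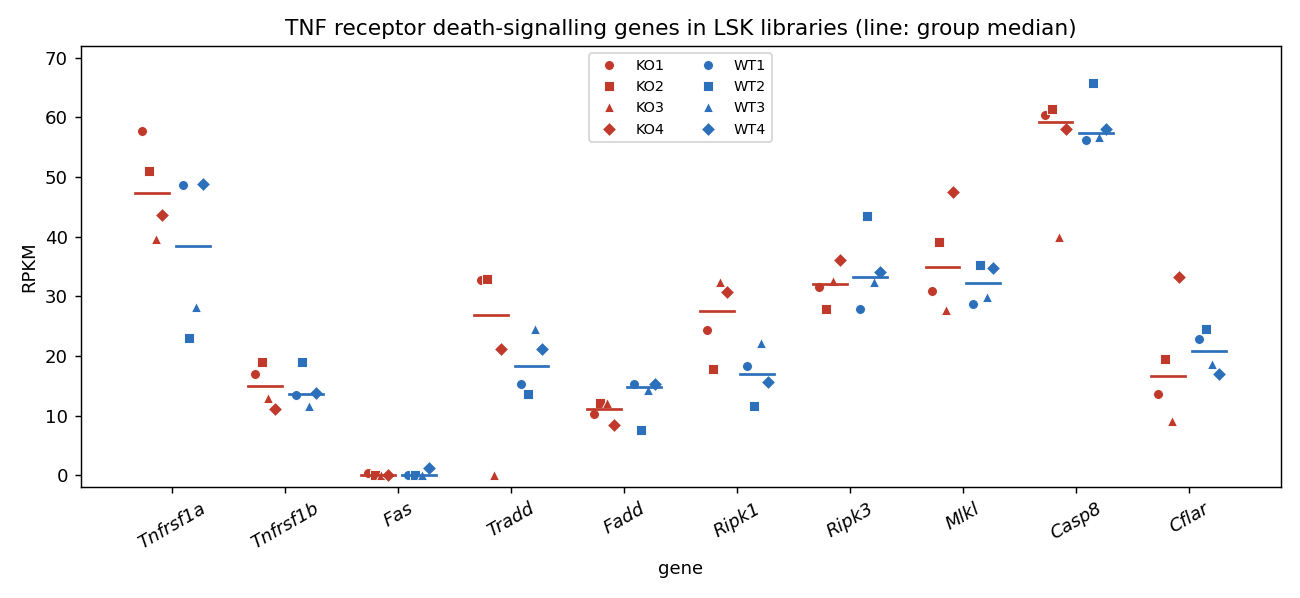
RPKM (vertical axis, linear) of the 10 genes in each of the 8 libraries, KO in red left of WT in blue, with symbols for libraries 1 to 4 and a line at each group's median. KO and WT points overlap in every gene, Fas lies at or near 0, and the KO3 point lies apart from the other KO points in Tradd (listed at 0) and Casp8 (39.9 RPKM).

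Of the receptors, Tnfrsf1a encodes TNF receptor type 1, which carries the death domain. It was at 57.8, 51.1, 39.7 and 43.6 RPKM in KO1 to KO4, against 48.7, 23.0, 28.2 and 48.8 RPKM in WT1 to WT4. The WT values fell into a low pair, WT2 and WT3, and a high pair that lay within the KO range. The means were 48.0 ± 8.04 RPKM in KO and 37.2 ± 13.6 RPKM in WT (SD, n = 4 each), and the log2 difference was 0.42 ± 0.28 (SE, 95% interval -0.20 to 1.05, limma adjusted p = 0.721 over all 11276 genes); without WT2 it was 0.22. Tnfrsf1b encodes TNF receptor type 2, which lacks a death domain and signals through TRAF2. Its values were 17.0, 19.0, 12.9 and 11.2 RPKM in KO1 to KO4, against 13.4, 19.1, 11.6 and 13.8 RPKM in WT1 to WT4, so the groups covered nearly the same range. The means were 15.0 ± 3.62 RPKM in KO and 14.5 ± 3.21 RPKM in WT (SD, n = 4 each). The log2 difference was 0.05 ± 0.28 (SE, interval -0.58 to 0.67, limma adjusted p = 0.972), and its sign turned when KO1, KO2 or WT3 was left out (-0.02, -0.07 and -0.05). With library weights it was 0.43 (adjusted p = 0.272), and in lane 4 alone 0.32.

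Fas encodes the receptor for Fas ligand, which recruits FADD and caspase-8 directly. It was listed at 0 in KO2, KO3, KO4, WT1, WT2 and WT3, at 0.380 RPKM in KO1 and at 1.20 RPKM in WT4. It did not reach 1 RPKM in 4 libraries, the filter for testing, so no test is given. Its ligand gene Fasl was listed at 0 in all 8 libraries.

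The adaptor TRADD links TNF receptor type 1 to RIPK1 and TRAF2. Tradd had 32.8, 32.8, 0 and 21.1 RPKM in KO1 to KO4, against 15.3, 13.6, 24.6 and 21.2 RPKM in WT1 to WT4. KO1 and KO2 lay above all WT libraries, KO4 lay within them, and KO3 was the only library that listed the gene at 0. With all libraries the log2 difference was -0.61 ± 1.03 (SE, interval -2.92 to 1.71, limma adjusted p = 0.879). Without KO3 it was 0.61 ± 0.28 (adjusted p = 0.527), and in the lane 4 libraries alone it was 0.82 ± 0.28 (adjusted p = 0.360), so 1 library set the sign. FADD joins the death domains of receptors and RIPK1 to caspase-8. Fadd was at 10.2, 12.1, 12.1 and 8.37 RPKM in KO1 to KO4, against 15.3, 7.54, 14.3 and 15.3 RPKM in WT1 to WT4. WT2 had the lowest value of all, and the other 3 WT libraries lay above all KO libraries. The means were 10.7 ± 1.79 RPKM in KO and 13.1 ± 3.75 RPKM in WT (SD, n = 4 each), with a log2 difference of -0.24 ± 0.32 (SE, interval -0.95 to 0.47, limma adjusted p = 0.843); without WT2 it was -0.46.

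RIPK1 is the kinase and scaffold at the branch between NF-κB, apoptosis and necroptosis. Ripk1 was at 24.4, 17.8, 32.4 and 30.7 RPKM in KO1 to KO4, against 18.3, 11.5, 22.1 and 15.7 RPKM in WT1 to WT4. KO1, KO3 and KO4 lay above all WT libraries, and KO2 lay below WT1 and WT3. The means were 26.4 ± 6.64 RPKM in KO and 16.9 ± 4.46 RPKM in WT (SD, n = 4 each). The log2 difference was 0.61 ± 0.28 (SE, interval -0.02 to 1.24, unadjusted p = 0.0568 in limma, adjusted p = 0.665), the smallest p of the 9 genes. The highest values were those of the lane 5 libraries KO3 and KO4, and in lane 4 alone the difference was 0.32. With library weights, which rest the KO side largely on KO2 (weight 6.50), it was 0.11. In the GRCm38 gene table Ripk1 overlaps Serpinb6a; whether counting used strand is not given in the sources used here, so reads in the shared stretch cannot be told apart.

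RIPK3 is activated by RIPK1 and phosphorylates MLKL, the pore-forming effector of necroptosis. Ripk3 was at 31.6, 28.0, 32.6 and 36.1 RPKM in KO1 to KO4, against 27.9, 43.5, 32.5 and 34.2 RPKM in WT1 to WT4. The KO values lay inside the WT range, which WT2 extended upward. The means were 32.1 ± 3.36 RPKM in KO and 34.5 ± 6.56 RPKM in WT (SD, n = 4 each), with a log2 difference of -0.09 ± 0.21 (SE, interval -0.55 to 0.37, limma adjusted p = 0.916); its sign turned with median centring (0.02) and without WT2 (0.02). Its spread over the 8 libraries (SD 0.20 on the log2 scale) was smaller than that of all but 2.89% of the genes tested. For Casp8 and Mlkl these shares were 3.68% and 7.06%, and the genes compared were not matched for level. The table also places the non-coding gene Gm32092 over Ripk3. Mlkl was at 30.9, 39.1, 27.8 and 47.6 RPKM in KO1 to KO4, against 28.7, 35.3, 29.8 and 34.7 RPKM in WT1 to WT4. KO3 held the lowest and KO4 the highest Mlkl value, so the KO values spanned the WT values. The means were 36.3 ± 8.87 RPKM in KO and 32.1 ± 3.34 RPKM in WT (SD, n = 4 each), with a log2 difference of 0.15 ± 0.22 (SE, interval -0.35 to 0.64, limma adjusted p = 0.859); without KO4 it was 0.01 and without KO3 0.26.

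Casp8 was at 60.4, 61.4, 39.9 and 58.0 RPKM in KO1 to KO4, against 56.3, 65.8, 56.8 and 58.1 RPKM in WT1 to WT4. KO3 alone lay below the narrow range that held the other 7 libraries. The means were 54.9 ± 10.1 RPKM in KO and 59.2 ± 4.45 RPKM in WT (SD, n = 4 each), with a log2 difference of -0.12 ± 0.19 (SE, interval -0.56 to 0.31, limma adjusted p = 0.865); without KO3 it was 0.02 ± 0.16. Cflar, the neighbouring gene on chromosome 1, encodes c-FLIP, the caspase-8 relative without protease activity that holds caspase-8 in check and is a textbook NF-κB target. Cflar was at 13.7, 19.6, 9.02 and 33.2 RPKM in KO1 to KO4, against 22.9, 24.5, 18.6 and 17.0 RPKM in WT1 to WT4. The KO libraries held the lowest (KO3) and the highest (KO4) values, and the WT libraries lay between them. The means were 18.9 ± 10.5 RPKM in KO and 20.7 ± 3.52 RPKM in WT (SD, n = 4 each). The log2 difference was -0.26 ± 0.37 (SE, interval -1.08 to 0.55, limma adjusted p = 0.846), and it was 0.02 without KO3 and -0.57 without KO4.

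**Figure D2:**
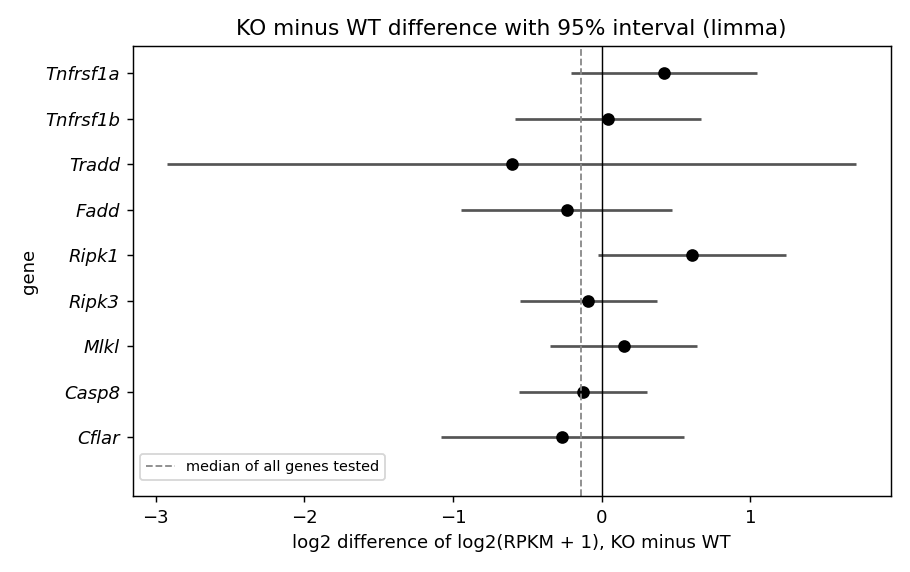
Log2 difference of log2(RPKM + 1), KO minus WT (horizontal axis), for the 9 genes tested, with points for the limma estimate, bars for its 95% interval (4 libraries per group) and a dashed line at the median of all genes tested (-0.14). All 9 intervals include 0; that of Tradd is the widest, and those of Casp8, Ripk3 and Mlkl are the narrowest.

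Over the members, 0 of the 9 tested members passed an adjusted p of 0.05, against 0% of all genes, and 0 of 9 had an unadjusted p under 0.05, against 7.51% of all genes. KO and WT did not overlap in 0 of the 9, against 5.92% of all genes. The difference was positive in 4 members (Tnfrsf1a, Tnfrsf1b, Ripk1, Mlkl) and negative in 5, where 61.0% of all genes were negative. The median over the 9 was -0.09, beside -0.14 over all genes tested. In 5 of the 9 the 95% interval lay within 2-fold either way: Tnfrsf1b, Fadd, Ripk3, Mlkl and Casp8. Changes of 2-fold are thus outside the interval for these 5, and inside it for Tnfrsf1a, Tradd, Ripk1 and Cflar. Over all genes tested the median half-width of the interval was 0.97 on the log2 scale, close to 2-fold. The share of all genes with an interval within 2-fold was not computed. Among the members tested, the most alike profiles over the 8 libraries were those of Mlkl and Casp8 (root mean square difference 0.23 of centred log2 levels), and the least alike were those of Tradd and Ripk1 (1.78), which differ most at KO3.

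Ratios of members within a library do not depend on how the library was scaled. The ratio of Cflar to Casp8, the inhibitor to the protease it restrains, was 0.226, 0.319, 0.226 and 0.572 in KO1 to KO4, against 0.407, 0.372, 0.328 and 0.292 in WT1 to WT4. In KO1 and KO3 it lay below all WT libraries and in KO4 above them, with means of 0.336 ± 0.163 in KO and 0.350 ± 0.050 in WT (SD, n = 4 each). Ripk3 to Mlkl, the kinase to its substrate, was 1.02, 0.716, 1.17 and 0.759 in KO1 to KO4, against 0.971, 1.23, 1.09 and 0.984 in WT1 to WT4. KO2 and KO4 lay below all WT libraries and KO1 and KO3 among them. Tnfrsf1a to Tnfrsf1b, the receptor with a death domain to the one without, was 3.41, 2.68, 3.08 and 3.90 in KO1 to KO4, against 3.63, 1.21, 2.44 and 3.55 in WT1 to WT4. Tnfrsf1a was the more abundant receptor in all 8 libraries, and WT2 had the lowest ratio. These ratios are descriptions with no test.

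**Figure D3:**
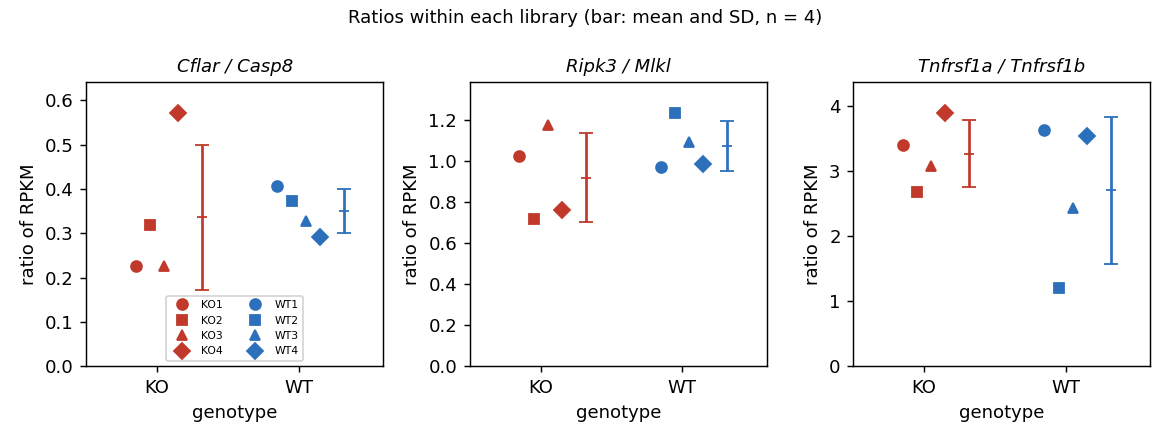
Ratio of RPKM (vertical axis, from 0) of Cflar to Casp8, Ripk3 to Mlkl and Tnfrsf1a to Tnfrsf1b in each library, KO in red left of WT in blue, with the mean and SD of 4 libraries as bars. KO and WT overlap in all 3 ratios, and KO4 is highest for Cflar to Casp8 (0.572).

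Around these members, 59 other genes of the same pathway were listed by role, and 52 of them could be tested. None passed an adjusted p of 0.05 in limma in either direction (0 higher, 0 lower). An unadjusted p under 0.05 was found in 3 of the 52, against 7.51% of all genes tested. Negative differences were 36 of 52, where 61.0% of all genes were negative. The median was -0.16, beside -0.14 over all genes tested. The 2 most abundant genes of each list are given where reported here. A20, Gsdmd, Casp1 and genes given for their KO3 value were added after their values were seen.

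Of the death ligands, 5 of 7 were tested (2 positive, 3 negative, median -0.05). Tnfsf10, which encodes the ligand TRAIL, was at 13.6 ± 6.39 RPKM in KO and 16.2 ± 4.18 RPKM in WT (SD, n = 4 each; log2 difference -0.31 ± 0.37, SE). Tnf itself was at 3.37, 5.90, 8.76 and 5.80 RPKM in KO1 to KO4, against 12.0, 0.0314, 12.3 and 12.0 RPKM in WT1 to WT4. In Tnf 3 WT libraries lay above all KO libraries and WT2 below them, and the log2 difference was -0.05 ± 0.82 (SE, limma adjusted p = 0.989). Of the other TNF receptor family genes, 5 of 10 were tested (2 positive, 3 negative, median -0.02). Cd27, a receptor of lymphocytes and early progenitors, was at 184.1 ± 23.2 RPKM in KO and 163.9 ± 22.9 RPKM in WT, and Tnfrsf21, death receptor 6, at 55.4 ± 4.47 RPKM in KO and 56.6 ± 7.48 RPKM in WT (SD, n = 4 each).

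The ubiquitin ligases and deubiquitinases that decide how long RIPK1 stays in the receptor complex were all tested (12 of 12). They had 3 positive and 9 negative differences and a median of -0.54. Traf2, Birc3, Rnf31 and Spata2 were listed at 0 in KO3 alone, Sharpin was at 0.0256 RPKM there, and each had a negative difference. Birc2, Xiap and Tnip1 were instead highest in KO3 (41.8, 32.6 and 14.7 RPKM), with log2 differences of 0.02, 0.25 and -0.15. The list median without KO3 was not computed. Rbck1, which encodes HOIL-1 of the linear ubiquitin ligase, was at 45.1 ± 11.3 RPKM in KO and 36.8 ± 3.56 RPKM in WT, and Otulin, which removes linear chains, at 34.5 ± 11.0 RPKM in KO and 35.3 ± 9.98 RPKM in WT (SD, n = 4 each). Tnfaip3 encodes A20, which edits ubiquitin on RIPK1 and is an NF-κB target. It was at 2.94, 4.17, 8.94 and 4.55 RPKM in KO1 to KO4, against 40.0, 21.2, 12.2 and 14.1 RPKM in WT1 to WT4. The highest KO value lay under the lowest WT value, and the log2 difference of -1.83 ± 0.45 (SE, unadjusted p = 0.00226) did not pass once adjusted (limma adjusted p = 0.441).

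Among 9 of 9 tested kinases and scaffolds that act on RIPK1, 1 difference was positive and 8 were negative (median -0.21). The positive one was Mapkapk2, the most abundant of the list, which encodes MK2, a kinase that phosphorylates RIPK1 downstream of p38. It was at 243.2, 170.9, 193.6 and 142.3 RPKM in KO1 to KO4, against 103.6, 122.1, 115.0 and 111.8 RPKM in WT1 to WT4. All KO values lay above all WT values, and the log2 difference of 0.70 ± 0.19 (SE, unadjusted p = 0.00388) did not pass once adjusted (limma adjusted p = 0.451). Tab2, an adaptor of the kinase TAK1, was at 37.2 ± 8.76 RPKM in KO and 43.2 ± 10.1 RPKM in WT (SD, n = 4 each). Tab3 was listed at 0 in KO3 alone and Ikbke was at 0.0138 RPKM there, with log2 differences of -0.03 and -0.44. Chuk was highest in KO3 (37.3 RPKM), with a log2 difference of -0.04.

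Of 11 of 11 tested genes of apoptosis execution, 3 differences were positive and 8 negative (median -0.44). Casp9, Cycs, Diablo and Dffb were listed at 0 in KO3 alone, each with a negative difference. Apaf1 and Dffa were instead highest in KO3 (27.6 and 9.25 RPKM), with log2 differences of -0.05 and 1.05. This list's median without KO3 was not computed either. Parp1, which encodes a sensor of DNA breaks, was at 87.3 ± 14.3 RPKM in KO and 89.5 ± 14.1 RPKM in WT (SD, n = 4 each). The 10 genes listed as necroptosis regulators split into 5 positive and 5 negative differences (median 0.00). The list includes Gsdmd and Casp1, genes of another form of cell death (pyroptosis), with log2 differences of -1.17 and 0.07. Hsp90ab1 and Cdc37, the chaperone pair on which RIPK kinases depend, were at 1240 ± 285.4 and 117.3 ± 32.1 RPKM in KO, against 1365 ± 23.7 and 120.2 ± 10.7 RPKM in WT (SD, n = 4 each). The groups did not overlap in 3 of the 52 genes, Tnfaip3 and Mapkapk2 among them (5.92% of all genes did not).

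**Figure D4:**
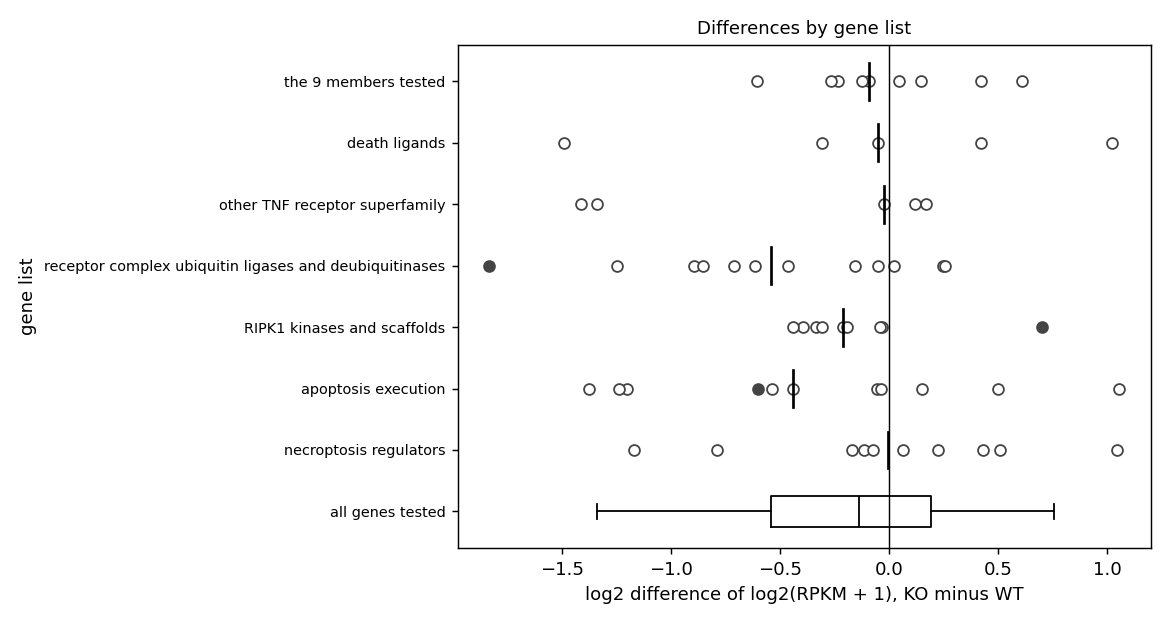
Log2 difference of log2(RPKM + 1), KO minus WT (horizontal axis), for each tested gene of the 9 members and of 6 pathway lists, with a bar at each list's median, filled points where KO and WT did not overlap, and for all genes tested a box (quartiles, line at the median) with whiskers at percentiles 5 and 95. No member is filled; the lowest of the 3 filled points is Tnfaip3 (-1.83) and the highest is Mapkapk2 (0.70).

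Markers of other cells were read beside these values. The sort markers Kit (50.6 to 113.3 RPKM in KO, 73.8 to 83.1 in WT) and Ly6a, which encodes Sca1 (6.53 to 10.9 RPKM in KO, 7.31 to 11.8 in WT), were above 0 in every library. The summed level of the 10 granulocyte-monocyte progenitor markers was 2133 to 8048 RPKM in KO and 629.2 to 1865 RPKM in WT, with no overlap and no test. Mpo, Prtn3 and Elane made up most of the sum, and the groups overlapped in Prtn3 and Elane. Taken singly, 5 of the 10 genes, Mpo among them, did not overlap, with KO higher (5.92% of all genes tested, either direction). In bulk RNA more cells of a type and more RNA per cell cannot be told apart, and the part of this difference in the members' levels was not tested. KO1, with the highest sum, had the highest Tnfrsf1a value, and KO4, with the lowest KO sum, the highest Mlkl and Cflar values. KO3, with the next lowest KO sum, had the lowest Mlkl and Cflar values. WT1, with the lowest sum of all 8, had a Tnfrsf1a value of 48.7 RPKM, above those of KO3 and KO4. These libraries and genes were picked after the values were seen, and no relation to the sum was tested. The 7 mature neutrophil markers summed to 0.167 to 35.9 RPKM in KO and 0 to 10.3 RPKM in WT (Retnlg listed at 0 in all 8), and the 7 macrophage markers to 0 to 23.3 RPKM in KO and 10.1 to 22.5 RPKM in WT. The 6 B cell markers summed to 6.65 to 16.4 RPKM in KO and 5.71 to 16.5 RPKM in WT, with Cd79a, Ms4a1 and Pax5 listed at 0 in all 8. Of the 5 T and NK cell markers found, Nkg7 made up nearly all of the sum (376.4 to 722.7 RPKM in KO, 399.6 to 456.8 in WT), Cd3g was listed at 0 throughout and Cd3e in 7 of 8 libraries. The 6 erythroid markers summed to 40.0 to 59.5 RPKM in KO and 38.6 to 133.1 in WT, the 5 megakaryocyte markers to 46.6 to 136.3 in KO and 53.7 to 96.7 in WT, and the 6 stromal and endothelial markers to 13.8 to 24.5 in KO and 14.2 to 26.3 in WT, with Col1a1 listed at 0 in all 8. The 7 stem cell and sort markers together summed to 281.7 to 428.7 RPKM in KO and 402.8 to 496.4 RPKM in WT. Of these 7, 1 did not overlap, Flt3, with KO lower (31.4 to 54.0 RPKM in KO, 59.3 to 89.2 in WT).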

How the data were processed

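RNA of sorted LSK cells was analysed in 8 libraries, 4 KO and 4 WT, grouped by title and genotype in the labels. Per the labels' protocols, poly(A) RNA was taken from 100 ng of total RNA. The submitters' processing notes name TopHat, edgeR and the mm9 build without versions or roles; how reads were counted, on which annotation and with what filters is not given in the sources used here. Values were deposited by the authors as RPKM, a unit inferred from the numbers themselves. Of 24112 Entrez IDs, 24029 (99.7%) matched a GRCm38.p6 table, used for names, neighbours and start regions only.

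Depth was estimated from genes with a lone transcript, at values of 0.2 RPKM or less; 50.6% to 60.5% of these were whole reads within 0.03, so reads could not be restored and count tests were not used. Intervals for counting error are therefore not given. Values were tested as log2(RPKM + 1), a scale that understates changes of low genes, in the 11276 genes that reached 1 RPKM in 4 or more libraries, with limma 3.58.1 in R 4.3.3 (genotype term, eBayes with trend and robust, 2-sided, Benjamini-Hochberg over all genes, threshold 0.05). Differences are KO minus WT. The fit was tested on simulated data. No libraries of a group were duplicates: the highest share of tested genes with equal values was 6.86% (KO3 with KO4).

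Members, lists and tests were chosen with earlier results of these data known. Named genes are the 10 members, Traf6, the 2 most abundant tested genes of each pathway list and any gene past the threshold. The most and the least alike pair of members are named too. Tnfaip3, Fasl, Cycs, Gsdmd, Casp1, pathway genes given for their KO3 value and marker genes not at 0 were named after their values were seen. In addition, 1 gene chosen by the rule is not reported here, but stayed in fits and counts. Alternatives were filters, pseudocount, scaling, library weights, lane, the replicate block, plain eBayes, an adjusted p of 0.1 and leaving out each library.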

Additional observations from a re-analysis of the deposited data

Results flagged for a closer look

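The 28 groups of 4 values were searched for a single library apart from the other 3, which chance alone finds in about 1 in 20 groups. Fadd was at 7.54 RPKM in WT2, below the 14.3 to 15.3 RPKM of the other WT libraries. Casp8 was at 39.9 RPKM in KO3, below the 58.0 to 61.4 RPKM of the other KO libraries. Fas was also picked out, at 0.380 RPKM in KO1 and 1.20 RPKM in WT4, only because the other 3 libraries of each group were listed at 0, where any value above 0 stands apart; the chance rate does not apply to it.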

How the results depend on the processing

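No member passed the threshold under any of the alternatives run, in which limma's adjusted p of the 9 members ranged upward from 0.272. The filters, the replicate block and plain eBayes leave the members' differences as they are by construction, so they say nothing of direction. Lane as a covariate gives the same differences as lane 4 alone, so it adds nothing on direction beyond that fit. Counting lane under each name, 14 values turned. Tradd turned to 0.58 with library weights and 0.82 with lane as a covariate and in lane 4 alone, and ranged from -1.08 to 0.61 when a library was left out; with a pseudocount of 0.1 it was -1.40. Casp8 turned to 0.0682 with library weights and 0.0417 with lane as a covariate and in lane 4 alone, and ranged from -0.184 to 0.0188 without single libraries. Ripk3 turned to 0.0151 with median centring, and ranged from -0.183 to 0.0249 without single libraries. Tnfrsf1b was 0.430 with library weights and 0.318 with lane as a covariate and in lane 4 alone. Without single libraries Tnfrsf1b ranged from -0.0721 to 0.178, Tnfrsf1a from 0.221 to 0.573, Mlkl from 0.0115 to 0.263, Fadd from -0.462 to -0.133, Cflar from -0.574 to 0.0160 and Ripk1 from 0.45 to 0.78. The cause was not tested.

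The count over all genes, 0, was 164 with library weights and 2 in lane 4 alone, and ranged from 0 to 2 without single libraries (2 without KO3). With the replicate number as a block it was 0 for all genes and 0 for members. Same-numbered libraries did not deviate together (r from -0.08 to -0.04 in 4 pairs). This showed no pairing and cannot exclude a shared origin, since KO3 and KO4 ran in another lane than WT3 and WT4. At an unadjusted p under 0.05 the count over all 11276 genes, 847, was 553 without WT1 and 1994 with library weights. That of the 9 members, 0, was 2 with library weights, and 1 with median centring, in lane 4 alone, without KO2 and without WT3. In these last 4 fits the count over all 11276 genes was 883, 1239, 927 and 607. The median of all genes, -0.14, moved to 0.00 with quantile normalization, -0.05 without KO3 and -0.02 in lane 4 alone, and to -0.18 without WT2. Fas, tested only with no filter, gave -0.17 ± 0.28 (SE). Zeros at high-level genes limit KO3 most.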
